A study of Mus musculus with 10 samples.

Results

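B cell identity genes are the genes whose transcripts mark a cell as a B lymphocyte. The 9 taken here, of 34745 genes in the deposited table, were found by gene symbol, from a list drawn up with earlier results of these data known. They are Cd79a, Cd79b, Ighm and Ighd of the antigen receptor, Ms4a1, Cd22 and Bank1 of the surface and its signalling, and the transcription factor genes Pax5 and Ebf1. Messenger RNA was sequenced from cells washed out of the mouse peritoneal cavity in 5 libraries labelled AX and 5 labelled NC. All 10 come from mice with cecal ligation and puncture, a surgical model of polymicrobial sepsis, given amlexanox or vehicle. The labels do not spell out the abbreviations; AX is taken here for amlexanox and NC for vehicle, the treatments that the series compares. The sources used here give no strain, sex, age, dose or time of sampling, and no library from unoperated mice was analysed here.

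B cells recognise antigen through a surface immunoglobulin that sits in a complex with the signalling proteins CD79A and CD79B. EBF1 and PAX5 are the transcription factors that set up and hold the B cell programme. The peritoneal cavity of mice is known for its B-1 cells, an innate-like population that carries much surface IgM and little IgD and is the source of natural antibody. Conventional follicular B cells carry both IgM and IgD, and also CD21 and CD23, the products of Cr2 and Fcer2a.

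The libraries held 10221170 to 13806885 counts each. Levels are CPM, read counts scaled to the library total, and folds are AX over NC from a fit over all 12264 genes tested. Marker genes of the lining mesothelium, summed over a list of 15 genes, were highest in AX 6 (2534 CPM), with the other AX libraries at 134.8 to 418.9 CPM, and next highest in NC 1 (1290.1 CPM), with the other NC libraries at 145.1 to 327 CPM. All 13 tested mesothelial and all 12 tested stromal markers had a fitted value above 0 for AX over NC (median log2 fold change 1.03 and 0.55), none past the threshold in edgeR. Without AX 6, 3 of 13 mesothelial and 6 of 12 stromal markers did. The part of these cells in the B cell gene levels was not tested. Markers of other cell types in the lavage were present too: 20 neutrophil genes summed to 8138 to 18178 CPM over AX and 11772 to 22447 CPM over NC.

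None of the 9 B cell identity genes passed the threshold between AX and NC, and the groups overlapped for every one of them. In RNA from mixed cells, fewer B cells and less of these RNAs per B cell cannot be told apart. All 9 were abundant enough to be tested, and 0 reached an adjusted p under 0.05 in edgeR, where 0% of all genes tested did. None had an unadjusted p under 0.05, where 0.921% of all genes tested did, and DESeq2 and limma-voom called 0 members as well. Fitted values were higher in AX for 4 members and lower for 5, with a median log2 fold change of -0.13, beside a median of 0.02 over all genes tested; 53.6% of all genes tested were higher and 46.4% lower in AX. With single libraries left out, 2 (without NC 3) to 6 (without NC 5) of the 9 were higher. The median then ran from -0.30 to 0.11, and it was above 0 without AX 6, AX 7, NC 2, NC 4 or NC 5. For 0 of 9 members did the groups fail to overlap, beside 0.0978% of all genes tested. The standard errors of the members ran from 0.28 to 0.55 on the log2 scale, beside a median of 0.32 for all genes. The 95% intervals all included 0.

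**Figure D1:**
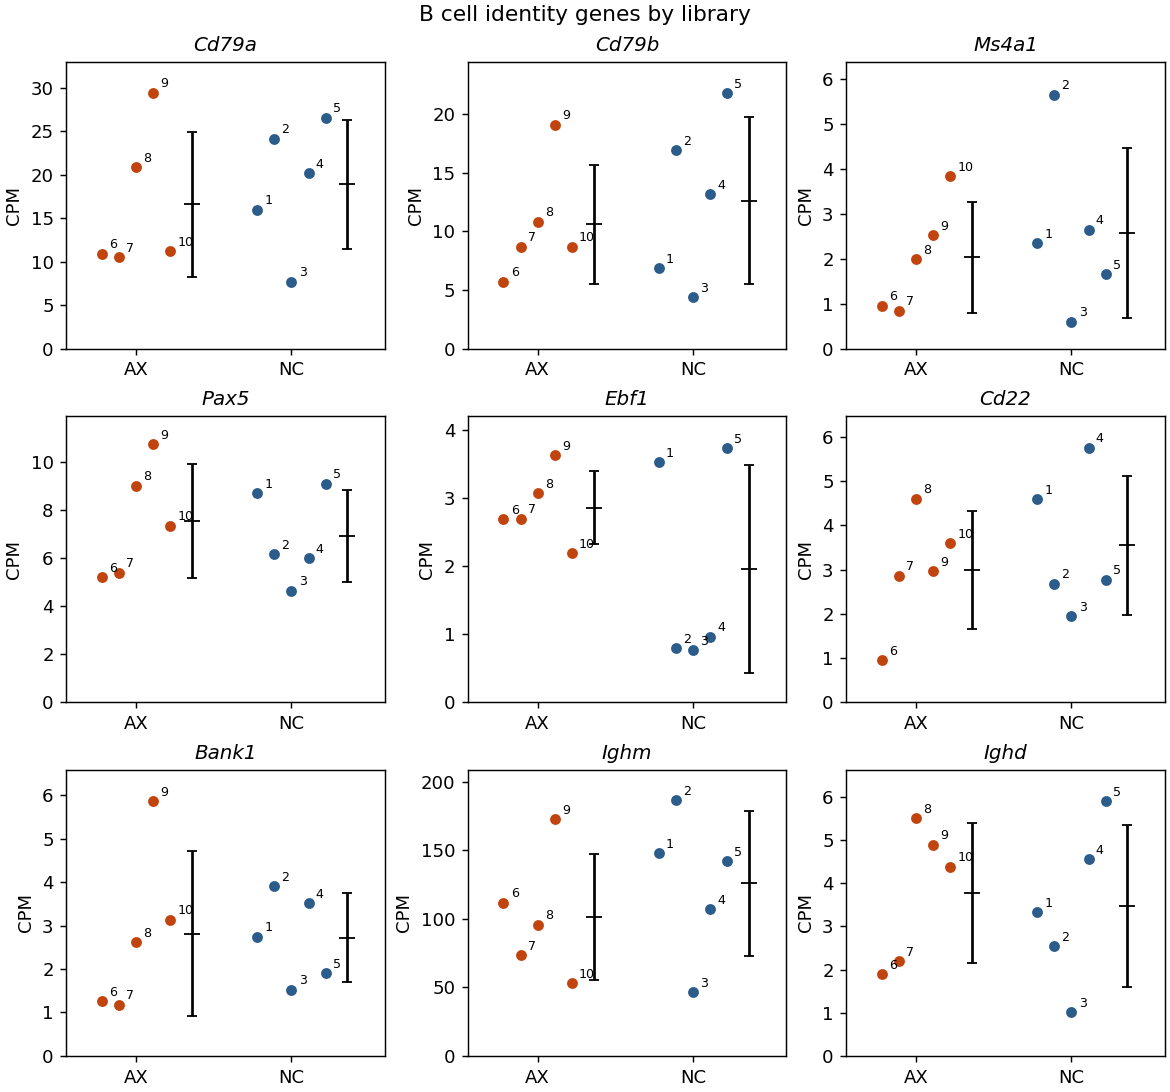
CPM for each of the 9 genes, with AX left of NC; points are libraries, marked with their number, and the black bar is the mean with the SD (n = 5). AX and NC points overlap in every panel, and NC 3 is the lowest point for 7 of the 9 genes.

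The receptor complex held the most abundant members. Cd79a (ENSMUSG00000003379, chromosome 7, 24897381 to 24902197 on the plus strand of mm10) encodes the CD79A signalling chain. It stood at 10.9, 10.5, 20.8, 29.4 and 11.2 CPM in AX 6 to AX 10, and at 15.9, 24.1, 7.70, 20.2 and 26.5 CPM in NC 1 to NC 5. AX 9 was the highest library and NC 3 the lowest, and 3 of the AX libraries lay close together near 11 CPM. The log2 fold change was -0.13 ± 0.37 (SE), with a 95% interval from -0.95 to 0.68 and adjusted p = 0.9999 with edgeR.

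The Cd79a promoter is shown because this gene, a known target of EBF1, E2A and PAX5, was used as the anchor for comparing the members across libraries. It covers chr7:24897247-24897546 on the plus strand of GRCm38.p6, 250 bases before to 50 after the gene start in RefSeq. Capitals mark CAGGTG, an E-box bound by E2A, searched on both strands and present in 20.2% of 32851 promoter windows of the same length.
Cd79a promoter: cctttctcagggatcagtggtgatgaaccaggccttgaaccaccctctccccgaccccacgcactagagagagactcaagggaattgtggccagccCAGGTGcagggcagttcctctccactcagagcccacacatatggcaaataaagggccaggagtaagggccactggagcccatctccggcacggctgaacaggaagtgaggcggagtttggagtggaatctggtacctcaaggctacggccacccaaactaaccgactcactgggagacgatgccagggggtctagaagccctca

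Cd79b (ENSMUSG00000040592, chromosome 11, 106311341 to 106314762, minus strand) encodes the partner chain of CD79A. It stood at 5.69, 8.68, 10.8, 19.1 and 8.69 CPM in AX 6 to AX 10, and at 6.85, 16.9, 4.401, 13.2 and 21.8 CPM in NC 1 to NC 5. The order of the libraries was much the same as for Cd79a, with AX 9, NC 2 and NC 5 high and NC 3 low. AX over NC came to -0.22 ± 0.43 on the log2 scale (SE). In FPKM, the authors' read counts scaled to library size and transcript length, Cd79a exceeded Cd79b in all 10 libraries, by 1.75 to 2.78 times in AX and 1.76 to 3.36 times in NC.

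Ighm (ENSMUSG00000076617, chromosome 12, 113418558 to 113422730, minus strand) encodes the constant part of the IgM heavy chain and was the most abundant member. It stood at 112, 73.6, 95.7, 173 and 52.9 CPM in AX 6 to AX 10, and at 148, 186 and 46.4 CPM in NC 1 to NC 3, with 107 and 142 CPM in NC 4 and NC 5. AX 9 and NC 2 were high, and AX 10 and NC 3 were low. With counts of 548 to 2574 per library, counting error was small, at 2.68% of the mean, beside an observed coefficient of variation of 42.5%. The log2 fold change was -0.24 ± 0.35 (SE), and the exact two-sided permutation test of the mean CPM gave p = 0.437 (n = 5 each).

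Ighd (ENSMUSG00000104213, chromosome 12, 113406604 to 113416324, minus strand) encodes the constant part of IgD, made by alternative splicing from the same transcription unit as IgM. It stood at 1.90, 2.19, 5.51, 4.89 and 4.38 CPM in AX 6 to AX 10, and at 3.33, 2.53, 1.02, 4.56 and 5.90 CPM in NC 1 to NC 5. These values rest on 12 to 68 counts per library. AX 6 and AX 7 lay below the other AX libraries and NC 3 below the other NC libraries. The fitted log2 fold change of Ighd was 0.18 ± 0.48 (SE).

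IgM transcripts far exceeded IgD transcripts in every library. On the FPKM scale the ratio of Ighm to Ighd was 50.4, 28.8, 14.9, 30.2 and 10.3 in AX 6 to AX 10, and 38.03, 63.0, 39.1, 20.1 and 20.6 in NC 1 to NC 5. The highest ratios, in NC 2 and AX 6, came from different groups, and the ranges overlapped. The mean log2 ratio of counts was 4.74 ± 0.90 in AX and 5.24 ± 0.69 in NC (SD, n = 5 each), a difference of -0.50 with p = 0.341 in an exact two-sided permutation test. It was -0.78 without AX 6, -0.21 without AX 10 and -0.26 without NC 2.

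Ms4a1 (ENSMUSG00000024673, chromosome 19, 11249675 to 11266241, minus strand) encodes CD20, a surface protein of mature B cells. It stood at 0.949, 0.842, 1.99, 2.52 and 3.83 CPM in AX 6 to AX 10, and at 2.35, 5.65, 0.592, 2.64 and 1.65 CPM in NC 1 to NC 5. NC 2 was the highest and NC 3 the lowest library, 9.54-fold apart, which was the widest spread of the 9 genes. Counts ran only from 7 to 78, so counting error alone came to 18.6% of the mean. The log2 fold change was -0.24 ± 0.55 (SE), with a 95% interval from -1.46 to 0.98.

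Cd22 (ENSMUSG00000030577, chromosome 7, 30865402 to 30880342, minus strand) encodes an inhibitory receptor of B cells that binds sialic acid and dampens receptor signalling. It stood at 0.949, 2.86, 4.60, 2.96 and 3.60 CPM in AX 6 to AX 10, and at 4.60, 2.68, 1.95, 5.76 and 2.78 CPM in NC 1 to NC 5. AX 6 was the lowest library, with 12 counts. AX over NC came to -0.17 ± 0.44 on the log2 scale (SE), and it turned to 0.05 without AX 6.

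The Cd22 window is shown because it was the only one of 6 member windows with the EBF palindrome (TCCC and GGGA with any 2 bases between them), searched on both strands and present in 0.904% of the 32851 windows. It covers chr7:30878979-30879278 on the minus strand of GRCm38.p6, set by a RefSeq start. That start is downstream of the 5′ end of the Cd22 span given above (30880342). The whole window thus lies inside the gene as counted here, not before it. Capitals mark the palindrome, TCCCTGGGGA, and an E-box read on the other strand, and the 2 do not overlap. Only exact matches were searched, so looser EBF sites, in the Cd79a window too, would not be marked. The octamer ATGCAAAT, which occurs in 1.74% of all windows, was not found in the 6 windows, which belong to 5 members (Cd79a, Pax5, Ebf1 with 2 starts, Cd22 and Bank1).
Cd22 promoter: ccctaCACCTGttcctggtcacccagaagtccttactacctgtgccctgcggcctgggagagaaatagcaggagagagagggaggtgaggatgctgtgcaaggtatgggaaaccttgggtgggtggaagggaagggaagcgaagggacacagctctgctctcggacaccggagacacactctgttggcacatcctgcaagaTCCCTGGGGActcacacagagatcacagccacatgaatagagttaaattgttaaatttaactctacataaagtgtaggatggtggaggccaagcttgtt

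Bank1 (ENSMUSG00000037922, chromosome 3, 136053363 to 136326066, minus strand) encodes a scaffold protein that links the receptor to LYN and calcium release. It stood at 1.27, 1.18, 2.62, 5.86 and 3.13 CPM in AX 6 to AX 10, and at 2.74, 3.91, 1.52, 3.52 and 1.91 CPM in NC 1 to NC 5. AX 9 was the highest library and AX 7 the lowest, so the extremes both lay in AX. For Bank1 the log2 fold change was 0.09 ± 0.44 (SE), and it turned to -0.26 without AX 9.

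Pax5 (ENSMUSG00000014030, chromosome 4, 44524757 to 44710487, minus strand) encodes the factor that commits cells to the B lineage. It stood at 5.22, 5.39, 9.03, 10.7 and 7.36 CPM in AX 6 to AX 10, and at 8.71, 6.16, 4.66, 5.998 and 9.11 CPM in NC 1 to NC 5. It was the steadiest of the 9 genes, with a coefficient of variation of 28.4% and a 2.31-fold gap between AX 9 and NC 3. The log2 fold change was 0.19 ± 0.28 (SE), with a 95% interval from -0.43 to 0.80. A microRNA gene, Mir5120, lies within Pax5 on the same strand, and reads there cannot be assigned with certainty. Genes on the opposite strand overlap Pax5, Ms4a1, Ebf1, Cd22 and Bank1 in GENCODE M21, and whether strand was used in counting is unknown, so their reads may include antisense reads; Cd79a, Cd79b, Ighm and Ighd have no overlapping gene.

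Ebf1 (ENSMUSG00000057098, chromosome 11, 44617317 to 45008091, plus strand) encodes the factor that starts the B cell programme with PAX5 and is also expressed by stromal and fat-lineage cells. It stood at 2.69, 2.70, 3.07, 3.63 and 2.19 CPM in AX 6 to AX 10, and at 3.52, 0.797, 0.762, 0.960 and 3.73 CPM in NC 1 to NC 5. All AX libraries lay close together, while NC was split, with NC 2, NC 3 and NC 4 under 1 CPM and NC 1 and NC 5 at the level of the highest AX library. Ebf1 had the widest fitted difference of the 9, a log2 fold change of 0.62 ± 0.49 (SE) with an unadjusted p = 0.233 and an adjusted p = 0.9999 in edgeR. It was 0.40 without NC 2 and 1.05 without NC 5.

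Ebf1 was low in NC 2 and NC 4, where several other members were high. NC 4 and NC 2 came just above NC 3, its lowest library, yet NC 2 was the highest library for Ms4a1 and Ighm and NC 4 the highest for Cd22. The summed level of 15 stromal markers was 2921, 1129, 699, 1346 and 711 CPM in AX 6 to AX 10, and 1607, 1209, 617, 329.8 and 640.3 CPM in NC 1 to NC 5. NC 3 and NC 4 were the lowest 2 libraries in stromal markers, while NC 2 was among the higher ones. NC 5, the highest library for Ebf1 (3.73 CPM), came next lowest in stromal markers. AX 6, the highest in stromal markers, stood at 2.69 CPM for Ebf1, and NC 1, high in stromal markers, at 3.52 CPM. The part of stromal cells in the Ebf1 level was not tested.

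**Figure D2:**
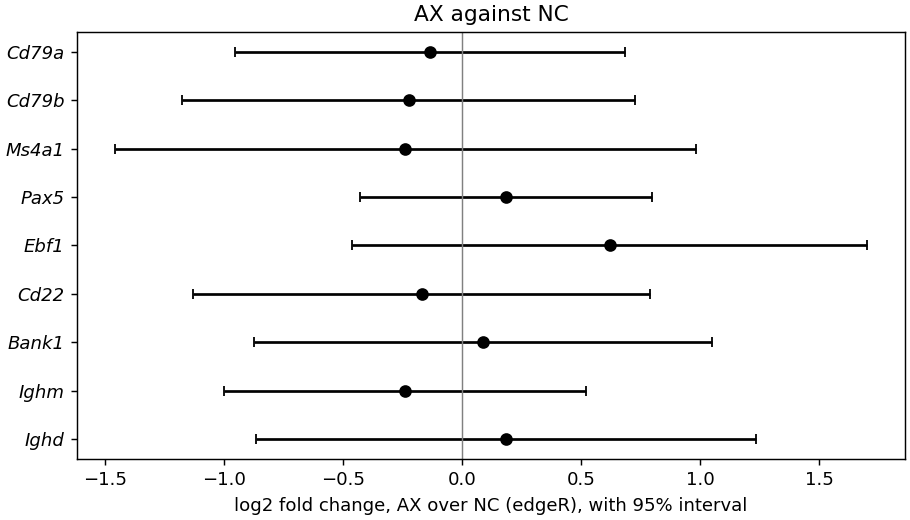
Log2 fold change of AX over NC for the 9 genes from edgeR, with 95% intervals; the vertical line marks no difference. Every interval includes 0, and Ebf1 lies farthest from it at 0.62, with an interval from -0.46 to 1.70.

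Set side by side per gene length, the members fell into a clear order over all 10 libraries. Ighm averaged 51.2 ± 21.7 FPKM, Cd79a 12.2 ± 5.20 FPKM, Cd79b 5.52 ± 2.82 FPKM, Ighd 1.91 ± 0.875 FPKM and Pax5 0.737 ± 0.209 FPKM (SD, n = 10). Each of these exceeded the next in all 10 libraries, and Pax5 exceeded Cd22 in all 10. The remaining 4 did not differ beyond their spread: Cd22 averaged 0.314 ± 0.135, Bank1 0.282 ± 0.147, Ms4a1 0.274 ± 0.183 and Ebf1 0.205 ± 0.101 FPKM. Cd22 exceeded Bank1 in 7 of 10 libraries, Bank1 exceeded Ms4a1 in 6, and Ms4a1 exceeded Ebf1 in 4.

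Differences between single libraries were larger than those between the groups. Ranked from highest to lowest level over 10 libraries, NC 3 held one of the lowest 3 places for all 9 members, AX 6 for 7 and AX 7 for 6. AX 9 held one of the highest 3 places for 7 members, and NC 2 and NC 5 for 5 each. Each group thus had libraries at both ends. NC 3, the library low in B cell genes, summed to 327 CPM for mesothelial and 16366 CPM for neutrophil markers, both within the range of the other libraries.

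**Figure D3:**
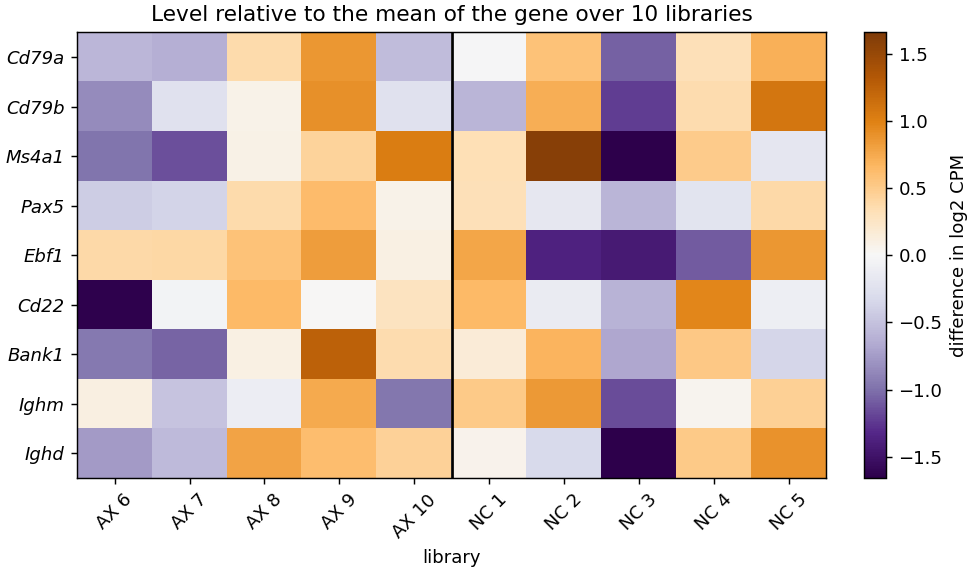
Difference in log2 CPM of each gene (rows) in each library (columns, AX left of the black line and NC right of it) from the mean of that gene over the 10 libraries. NC 3 is purple in every row, AX 9 is orange or near white in every row, and the Ebf1 row breaks the pattern in NC 2 and NC 4.

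To see which members varied together, each was compared with Cd79a over the 10 libraries on the log2 scale of scaled CPM, with 8 relations and 100000 permutations each. Cd79b followed Cd79a most closely, with Pearson r = 0.90 (permutation p = 0.00106, adjusted 0.00848) and Spearman rho = 0.85 (p = 0.00285, adjusted 0.0228). Without AX 7 and NC 3, the 2 libraries farthest from the Cd79a median, r was 0.90. Ighm gave r = 0.79 (adjusted permutation p = 0.0264) and rho = 0.78 (adjusted p = 0.0328), and Ighd r = 0.76 (adjusted permutation p = 0.0375) and rho = 0.71 (adjusted p = 0.0517). Without the same 2 libraries r was 0.60 for Ighm and 0.54 for Ighd. Leaving out the extremes of Cd79a narrows its range, which tends to lower r in itself. How far these relations rest on those libraries was thus not tested. The Ighm relation missed the threshold without AX 7, AX 9, NC 3, NC 4 or NC 5 (adjusted permutation p 0.0503 to 0.116). The Ighd relation missed it without any single library other than AX 10 or NC 2 (adjusted permutation p 0.0602 to 0.138).

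The other members had a lower r with Cd79a. Pax5 gave r = 0.69 (permutation p = 0.0327, adjusted 0.0654) with rho = 0.77 (p = 0.0123, adjusted 0.0328), and r = 0.49 without the 2 libraries. Bank1 gave r = 0.65 (permutation p = 0.0461, adjusted 0.0738), Ms4a1 r = 0.54 (permutation p = 0.113, adjusted 0.151), Cd22 r = 0.37 (permutation p = 0.301, adjusted 0.344) and Ebf1 r = 0.25 (permutation p = 0.481, adjusted 0.481), and their rho values were 0.54, 0.42, 0.28 and 0.60 (adjusted permutation p = 0.151, 0.268, 0.427 and 0.118). Without the 2 libraries r was 0.43 for Bank1, 0.07 for Ms4a1, 0.28 for Cd22 and 0.02 for Ebf1. Ms4a1, Cd22, Bank1 and Ebf1 were also the members with the fewest counts, 288 to 394 over all libraries, and the part of counting error in their weaker relations was not tested. No correlation was taken within AX or NC alone, which hold 5 libraries each.

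Genes with a mean log2 CPM of at least 1 were ranked by r with Cd79a, 11288 in all, the other members included; Cd79b took place 6. Leaving the members out, the 10 genes closest to Cd79a included several lymphocyte genes. The nearest was H2-DMb2 (r = 0.94, rho = 0.89), a chain of the H2-M protein that loads peptide onto MHC class II. It averaged 6.99 ± 2.69 CPM in AX and 7.05 ± 3.15 CPM in NC (SD, n = 5 each). Psmb9, an immunoproteasome subunit gene, followed with r = 0.92, then Snn (0.92), Nkg7 (0.92), a gene of cytotoxic lymphocyte granules, and Kcnab2 (0.91). Mzb1 (0.90), an endoplasmic reticulum protein of antibody-making B-lineage cells, came next. Btla (0.90), an inhibitory receptor of lymphocytes, and Cd2 (0.89), an adhesion receptor of T, NK and, in mice, B cells, followed. Ptprcap (0.88) and Wdr92 (0.87) were last. These r values were the highest of many, so they carry no test.

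Some other B cell genes lay near Cd79a as well, but most of those listed did not. The nearest 100 of the 11288 ranked genes were searched. Within the nearest 100 of these genes were 4 of 13 ranked B cell surface genes (among them H2-DMb2, Fcrla and H2-Ob), 1 of 21 receptor signalling genes (Blk, a kinase of the SRC family), 1 of 16 transcription factor genes (Pou2af1, the octamer coactivator of B cells) and 1 of 12 genes listed for B-1 cells (Zbtb32). So were 2 of 8 ranked T cell markers (Trac, and Cd2, which is not confined to T cells). Of 20 neutrophil, 15 macrophage and 13 mesothelial markers, 0 were within the nearest 100. As 100 of 11288 genes is a small share, lists of this size would mostly hold 0 by chance too. None of these counts was tested against that share. Summed T cell markers stood at 36.1, 33.9, 64.9, 45.6 and 31.4 CPM in AX 6 to AX 10, and at 34.8, 42.2, 26.3, 35.2 and 79.8 CPM in NC 1 to NC 5, lowest in NC 3 as for most of the 9 members. The part of T cells in the shared pattern was not tested.

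The wider B cell programme was read from 6 further lists, in which 0 genes passed the threshold in edgeR and 0 had an unadjusted p under 0.05. Of 15 tested B cell surface genes, 7 were higher and 8 lower in AX by their fitted values (median log2 fold change -0.02). The number higher was 4 (without AX 9 or NC 3) to 10 (without NC 5) with single libraries left out, and 4 with library totals only as scaling. Its most abundant members, Cd38 (AX 1620.2 ± 560 CPM, NC 1869 ± 475 CPM) and Cd37 (AX 69.3 ± 31.7 CPM, NC 71.3 ± 26.4 CPM), are shared with macrophages and other leukocytes. Tnfrsf13b, which encodes the BAFF and APRIL receptor TACI, varied widely, averaging 17.9 ± 22.7 CPM over AX and 27.3 ± 19.8 CPM over NC. Of 22 receptor signalling genes, 6 were higher and 16 lower (median -0.12), with 9 higher without AX 6. Here too the most abundant, Lyn, Ptprc and Syk, are shared with myeloid cells; Lyn averaged 657 ± 245 CPM over AX and 752 ± 158 CPM over NC. Ptprc, which encodes the leukocyte antigen CD45, stood at 19.4 CPM in AX 8 and at 341 CPM or more in each of the other libraries.

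Of 17 B lineage transcription factor genes, 10 were higher and 7 lower in AX (median log2 fold change 0.07). Without AX 10, 7 were higher and 10 lower. The most abundant were Spi1, Pou2f2 and Ikzf1, of which Spi1 is shared with myeloid cells. Ikzf1 stood at 6.82 CPM in AX 9 and at 52.7 CPM or more in every other library. Pou2f2, which encodes the octamer factor OCT-2, averaged 208 ± 135 CPM over AX and 125 ± 81.0 CPM over NC, with 6.23 CPM in NC 2 beside 42.5 CPM or more in every other library. All 12 tested genes of the plasma cell list had a lower fitted value in AX (median -0.25, range -0.95 to -0.05), beside 46.4% of all genes tested; without NC 5, 9 of the 12 were lower and 3 higher. The 3 most abundant, Xbp1 (AX 280.1 ± 91.0 CPM, NC 319.9 ± 95.4 CPM), Edem1 and Creld2, serve protein folding and secretion in many cell types. The secretory cell gene Tnfrsf17, which encodes BCMA, was at 0 counts in all 10 libraries. Jchain, the joining chain of polymeric IgM and IgA, had 8 to 26 counts, a mean of 1.04 ± 0.511 CPM over AX and 1.26 ± 0.784 CPM over NC.

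Genes that separate B-1 from follicular B cells were looked at because both could be in a peritoneal wash. Of 12 tested genes of the B-1 list, 8 were higher and 4 lower in AX (median log2 fold change 0.05), but 4 higher and 8 lower without NC 1, and 6 each way with library totals only as scaling. The most abundant of them, Cd9, Cd300lf and Spn, are shared with myeloid cells, and 2 transcription factor genes of the list were taken as well. Zbtb32 averaged 4.18 ± 2.08 CPM in AX and 4.29 ± 1.78 CPM in NC, and Bhlhe41, which B-1 cells need, 3.95 ± 1.57 CPM in AX and 4.16 ± 0.736 CPM in NC. Cd5, the marker of B-1a cells, was near the limit of detection, with 0 to 6 counts per library. The follicular genes were as low, with 0 to 8 counts for Cr2 and 0 to 5 counts for Fcer2a.

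Immunoglobulin heavy chain counts were almost all IgM. Of 7 tested immunoglobulin constant genes, 4 were higher and 3 lower in AX (median log2 fold change 0.02), with 2 higher without AX 6, AX 8 or NC 3, 6 higher without NC 5, and 3 higher with library totals only as scaling. Over all libraries Ighm took 95.2% of 14658 heavy constant counts (95% exact binomial interval 94.9 to 95.6%), Ighd 2.99% (2.72 to 3.28%), Igha 0.805% (0.667 to 0.963%), Ighg3 0.539% and Ighg2b 0.375%. Ighe had 0 counts, which allows a share of up to 0.0252%, and Ighg1 and Ighg2c had 3 and 4, each from 1 library. These intervals cover counting error only. The Ighm share was 94.0 ± 2.36% in AX and 95.6 ± 1.98% in NC (exact two-sided permutation p = 0.262, n = 5 each). Igha, the constant gene of IgA, stood at 4.11 CPM in AX 6 and 0 to 1.04 CPM in the other AX libraries, against 0.0846 to 1.56 CPM in NC. The light chain gene Igkc averaged 40.2 ± 15.7 CPM in AX and 45.5 ± 20.2 CPM in NC. Reads on the near-identical gamma and lambda constant genes cannot be assigned to one copy with certainty.

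Variable segments, which are read out mostly from rearranged genes of B-lineage cells, gave 1022 counts over 350 rows, of which 89 had a count. Their summed level was 17.8, 2.78, 1.99, 15.0 and 4.62 CPM in AX 6 to AX 10, and 11.9, 13.9, 1.52, 5.12 and 7.37 CPM in NC 1 to NC 5. NC 3 was again the lowest, but AX 6, low for most of the 9 members, was the highest. The means were 8.43 ± 7.39 CPM in AX and 7.97 ± 5.03 CPM in NC (exact two-sided permutation p = 0.897, n = 5 each), and the small difference changed sign without AX 6, AX 9, NC 3 or NC 4 (-1.88, -1.18, -1.15 and -0.255 CPM).

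Lambda segments held 234 of the variable counts. In AX 6 they held 94 of 225 variable counts, beside 5 to 35 lambda counts in each other library. A few variable segments held a large share of the kappa and heavy counts. The most used kappa segments, Igkv4-91 and Igkv14-126, took 178 and 137 of 627 kappa counts, where 55 of 162 kappa rows had a count. Together they took 50.2% (95% exact binomial interval 46.3 to 54.2%, for counting error only). Their share varied between libraries: Igkv4-91 and Igkv14-126 had 13 and 15 of 36 kappa counts in AX 10. They had 3 and 0 of 14 in AX 8, and 0 and 1 of 9 in NC 3. Among heavy segments Ighv12-3 had 34 of 161 counts, Ighv1-58 had 26, Ighv8-10 had 24 and Ighv11-2 had 18. Ighv12-3 and Ighv11-2, first and last of these, took 32.3% together (25.2 to 40.1%). Neither had a count in AX 10, NC 3 or NC 4, and AX 9 had the most on each, 12 and 6. This heavy pair and the kappa pair were singled out after their values were seen, and for the pairings known from B-1a cells. As background, pairings of Ighv11-2 with Igkv14-126 and of Ighv12-3 with Igkv4-91 are known in mouse peritoneal B-1a cells as the receptors for phosphatidylcholine. Pairing itself cannot be seen in gene counts.

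The ends of the germline segments of both pairs are shown because they begin the antigen-binding loop CDR3. They are the last 60 bases of the GENCODE M21 transcripts, 5′ to 3′, and capitals run from the conserved cysteine codon to the segment end. The heavy segments lie on chromosome 12 (Ighv11-2 from 114048241 to 114048812, Ighv12-3 from 114366521 to 114366954, both minus strand) and the kappa segments on chromosome 6 (Igkv14-126 from 67896172 to 67896642, plus strand; Igkv4-91 from 68768555 to 68769103, minus strand) of mm10.
Ighv11-2: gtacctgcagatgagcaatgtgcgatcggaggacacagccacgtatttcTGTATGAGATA
Ighv12-3: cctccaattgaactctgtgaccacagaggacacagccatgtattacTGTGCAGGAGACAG
Igkv14-126: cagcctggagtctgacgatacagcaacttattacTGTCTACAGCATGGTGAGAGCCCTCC
Igkv4-91: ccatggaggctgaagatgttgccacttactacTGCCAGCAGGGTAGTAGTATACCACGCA

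Their likeness to other segments limits how surely reads were assigned. Ighv11-2 is 98.9% identical to Ighv11-1, which had 1 count, so reads of the 2 cannot be told apart with certainty. Igkv14-126 is 91.6% identical to its nearest copy, Igkv14-111, which had 8 counts. Igkv4-91 and Ighv12-3 are 87.7% and 79.7% identical to their nearest copies, Igkv4-60 and Ighv3-2, which had 0 counts each.

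The leading kappa segments were spread over both groups. Igkv4-91 had 59, 3, 3, 50 and 13 counts in AX 6 to AX 10, and 16, 19, 0, 9 and 6 counts in NC 1 to NC 5. Igkv14-126 had 14, 8, 0, 22 and 15 counts in AX 6 to AX 10, and 18, 29, 1, 11 and 19 counts in NC 1 to NC 5. AX 6 and AX 9 held most counts on Igkv4-91, while Igkv14-126 was the most used kappa segment in 6 libraries and Igkv4-91 in 2. The pair took 59.6% of kappa counts summed over AX and 40.9% summed over NC, but counts of one library may come from few cells, and the groups were not tested on this share.

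**Figure D4:**
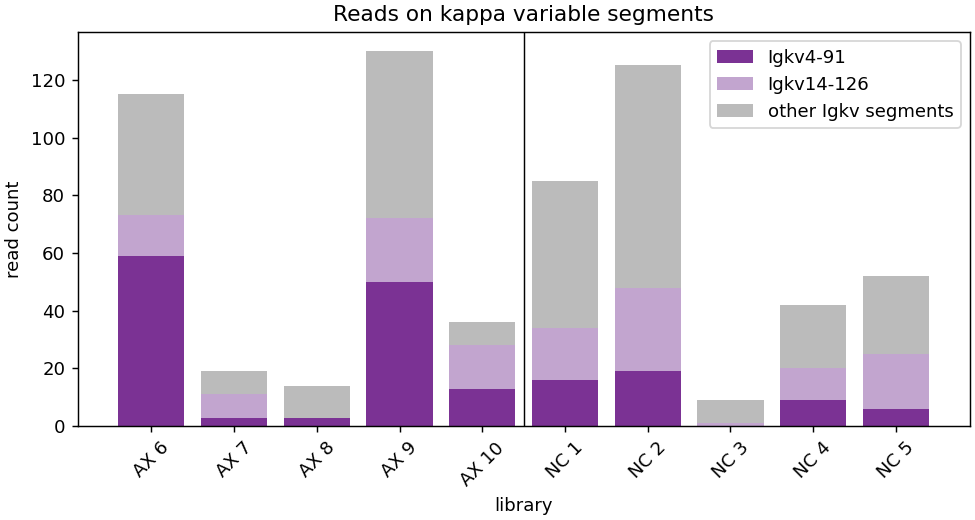
Read counts on kappa variable segments in each library (AX left of the vertical line, NC right), split into Igkv4-91, Igkv14-126 and all other kappa segments. AX 6 and AX 9 hold 59 and 50 counts of Igkv4-91, and NC 3 holds 9 kappa counts in all.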

How the data were processed

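Poly(A) RNA of peritoneal lavage cells was sequenced in 10 libraries, 5 AX and 5 NC. The submitters' processing notes name HISAT2 2.0.4 and the build mm10. How reads were counted, on which annotation and whether by strand is not given in the sources used here. In 1 table the authors deposited a read count and an FPKM value per gene and library, per the file headers. The count columns were used for all tests and CPM values, and FPKM for levels between genes.

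Of 34745 genes, 12264 passed edgeR's filter on low counts. AX was compared with NC by the quasi-likelihood test of edgeR 4.0.16 (R 4.3.3) with TMM scaling and Benjamini-Hochberg adjustment over all genes tested, at a threshold of 0.05. DESeq2 1.42.0, limma 3.58.1, other scalings and filters, and leaving out each library were alternatives. Single values were compared by two-sided exact permutation tests (scipy 1.17.1), whose smallest p for 5 against 5 is 0.00794. Tested on simulated data, the fit recovered few of the smaller planted changes and also missed part of the larger ones. Ratios used a pseudocount of 0.5. Binomial intervals are exact and cover counting error only. Nothing in the labels says that each library is a separate animal, so p-values measure the spread between these libraries, which may be technical; no pair of libraries matched within counting error (chi-square of counts over genes divided by its degrees of freedom, 38.6 to 302).

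The members, gene lists and alternatives were chosen with earlier results of these data known. Named genes were all 9 members, up to 3 of the most abundant tested genes of each list, and the 10 genes outside the members with the highest Pearson r with Cd79a. Other genes and the variable segments were named after their values were seen.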

Additional observations from a re-analysis of the deposited data

Results flagged for a closer look

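In none of the 18 groups of member values did 1 library stand far from the other 4. Over all 120 groups of 5 examined, 11 had such a library by Dixon's criterion, where chance gives about 5% of groups. That share holds for normally distributed values, which CPM near 0 are not. Immunoglobulin constant genes accounted for 5 of them, some at very low counts. Ighg1 and Ighg2c had 3 and 4 counts in all, each from 1 library. A group with counts in only 1 library meets the criterion whatever the level. Ighg2b had 3 to 16 counts in the NC libraries. Ighg1 had 0.260 CPM in NC 5 and 0 in the other NC libraries, and Ighg2b had 1.39 CPM in NC 5, with the others at 0.294 to 0.592 CPM. Ighg2c had 0.313 CPM in AX 10 and 0 in the other AX libraries, and Igha 4.11 CPM in AX 6 and 0 to 1.04 CPM in the others. Iglc3 was low in NC 3, at 1.10 CPM, with the other NC libraries at 3.64 to 4.403 CPM.

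Among the other genes, Tnfrsf13b stood at 57.0 CPM in AX 10 and 3.71 to 18.7 CPM in the other AX libraries, and Creld2 at 60.4 CPM in AX 6 and 129 to 152 CPM in the others. Btla stood at 5.08 CPM in NC 3, with the other NC libraries at 11.04 to 11.8 CPM. Wdr92 stood at 3.55 CPM in NC 3, with the others at 6.40 to 7.55 CPM. Summed mesothelial markers stood at 2534 CPM in AX 6 and 134.8 to 418.9 CPM in the other AX libraries, and at 1290.1 CPM in NC 1, with the other NC libraries at 145.1 to 327 CPM.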

How the results depend on the processing

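No paired analysis was possible because the groups share no replicate numbers. In all 20 alternatives 0 members passed the threshold, and the smallest adjusted p of a member was 0.999 (edgeR, DESeq2 or limma). Over all genes the count was 0 to 1 when single libraries were left out: without NC 3, edgeR called Rnf24 (log2 fold change -5.75, adjusted p = 0.0174), a gene chosen after its value was seen. Of 166 alternative values of single members, 12 changed sign: Cd79a to 0.00087 without AX 7 and 0.055 without NC 5, Cd79b to 0.11 without NC 5, Ms4a1 to 0.21 without NC 2, and Cd22 to 0.05 without AX 6, 0.11 without NC 4 and 0.11 without AX 6 and NC 1 together. Bank1 turned to -0.061 with limma-voom, -0.26 without AX 9 and -0.03 without NC 3, and Ighd to -0.060 without AX 8 and -0.04 without NC 3. Over single libraries left out, the log2 fold change ran from -0.35 to 0.055 for Cd79a, -0.46 to 0.11 for Cd79b, -0.61 to 0.21 for Ms4a1, -0.44 to 0.11 for Cd22, -0.26 to 0.29 for Bank1 and -0.060 to 0.50 for Ighd. Pax5 (0.05 to 0.34), Ebf1 (0.40 to 1.05) and Ighm (-0.43 to -0.08) kept their direction wherever they had a value. The variable segment difference ranged from -1.88 to 2.07 CPM over single libraries left out, and was -0.892 CPM without AX 6 and NC 1 together and -30.7 CPM with constant genes added. The number of members related to Cd79a, 3 of 8, was 5 with library totals only and 1 to 6 over single libraries left out: 1 without AX 7, AX 9, NC 3 or NC 4, and 6 without AX 10. The r of Ebf1 with Cd79a was -0.014 without NC 3 and 0.463 without NC 2, the ends of its range. With limma on log2(FPKM + 1), which tests fewer genes, 1 of 8 B cell surface, 2 of 20 receptor signalling and 5 of 12 transcription factor genes were higher in AX. The causes were not tested. The filter of 50 counts in 5 libraries gave no value for Ms4a1, Ebf1, Cd22 and Bank1, and the FPKM filter none for these and Pax5. Depth limits Ms4a1, Ebf1, Cd22, Bank1 and Ighd most, with as few as 7 counts in a library.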
